A study of Vigna radiata with 9 samples.

Results

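Glutathione S-transferases were followed through the leaf transcriptome of mung bean (Vigna radiata). They were taken as the 54 genes, of 26966 in the count table, whose product description contains the words glutathione S-transferase in any case. By the wording of these descriptions 11 were of the phi class, 8 of the tau class, 4 of the lambda class and 3 of the zeta class. The dehydroascorbate reductase (DHAR), tetrachlorohydroquinone dehalogenase-like (TCHQD), omega and theta classes had 2 genes each, and the descriptions of the other 20 named no class. These names come from best matches in other species, and whether each gene is the counterpart of its namesake was not tested. The file gave the term glutathione transferase activity to 54 of the 54 genes and toxin catabolic process to 21 of them.

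Glutathione S-transferases join the tripeptide glutathione to reactive compounds or use it to reduce peroxides. The tau and phi classes are large in plants and are best known for the detoxification of herbicides and of products of oxidative stress, and many of their genes respond to hormones and stress. The conjugates are carried into the vacuole by transporters of the ABCC family. Members of the DHAR class return dehydroascorbate to ascorbate at the expense of glutathione, those of the lambda class reduce thiol-bound compounds, and those of the zeta class act in the breakdown of tyrosine. Theta and omega members also occur in animals.

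The samples were leaves of 1 cultivar, 'Lvfeng No.2', taken from 3 pots in each of 3 groups that were sprayed when flowering began. CK plants received water and stayed in the natural environment. LT plants received water and spent 4 days in a phytotron at 15 °C, so that temperature and place of growth cannot be told apart in this comparison. LT+S plants received uniconazole at 50 mg/L, a triazole growth retardant that blocks gibberellin synthesis, before the same 4 days at 15 °C. In the labels the compound is written S3305, S3306 and S3307 for LT+S 1, 2 and 3, while the study's methods name S3307 alone, and they were treated as replicates. The CK libraries serve as control for LT and for LT+S alike, which ties the comparisons to each other.

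The 9 libraries held 19561896 to 21617340 counted reads. Small subunits of Rubisco and chlorophyll a-b binding proteins, which mark leaf mesophyll, had reads for 20 of 20 genes, and their summed level, in CPM (reads per 1000000 counted, on scaled library sizes), was between 59970 and 101500 in CK, between 6725 and 15360 in LT and between 15860 and 18280 in LT+S. Vascular and secondary wall markers had reads for 39 of 40 genes and summed to 74.4, 400 and 699 CPM in CK 1, CK 2 and CK 3, with 198 to 546 CPM for LT libraries and 275 to 365 CPM for LT+S libraries. Floral and pollen markers had reads for 32 of 56 genes, which summed to between 397 and 486 CPM in CK, 573 and 738 CPM in LT, and 447 and 636 CPM in LT+S, and the 3 pollen-specific genes among them were at 0 in the 9 libraries. Root and nodule markers had reads for 19 of 28 genes, which summed to between 780 and 956 CPM in CK, 477 and 570 CPM in LT, and 536 and 628 CPM in LT+S. Of these, the leghemoglobin genes alone summed to 419 to 606 CPM in CK and to 105 to 155 in the cold libraries. The sum of the other root and nodule markers was not lower in the cold. The part of these markers in the results below was not tested. In such bulk leaf RNA, fewer cells of a type and less RNA per cell cannot be told apart.

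The summed CPM of the whole family, on scaled library sizes, was lower in the cold. The 54 genes summed to 1896, 1734 and 1779 CPM in CK 1 to 3, to 1224, 1421 and 1540 CPM in LT 1 to 3, and to 1574, 1199 and 1229 CPM in LT+S 1 to 3. Each cold library lay below each CK library, and the ratio of the means to CK was 0.774 in LT and 0.740 in LT+S. The exact permutation test gave p = 0.1 in both, two-sided, which is the smallest p that 3 libraries against 3 allow. LT+S and LT overlapped, with a ratio of 0.957 (exact permutation p = 0.9). CPM counts reads and is not divided by gene length, so that levels are compared here within a gene or a fixed set of genes and not between genes. The lower family level rests on the scaling of the libraries. No CK library was scaled by more than 0.8041, and no cold library by less than 1.054. Before scaling, the counted reads of the family in total were not fewer in either cold group than in CK. The same scaling enters each CPM and log2 fold change below and moves the cold values down relative to CK.

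The makeup of these reads differed as well. The lambda class gave 716, 601 and 565 CPM in CK, 334, 445 and 362 in LT, and 352, 260 and 315 in LT+S. The mean of the DHAR class was 284.5 ± 47.5 CPM (SD, n = 3) in CK, 84.4 ± 23.9 in LT and 85.4 ± 17.9 in LT+S, with ratios to CK of 0.297 and 0.300 (exact permutation p = 0.1 for each). The theta class was higher in the cold, at 51.4 ± 3.81 CPM in CK, 76.5 ± 2.64 in LT and 74.3 ± 6.60 in LT+S (exact permutation p = 0.1 for both). The 20 genes with no class in the description had 131, 136 and 154 CPM in CK, 170, 163 and 432 in LT, and 254, 148 and 153 in LT+S. LT 3 had more than 2 times the level of the other LT libraries, and LT+S overlapped with CK (exact permutation p = 0.3). A chart shows the class sums by library.

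**Figure D1:**
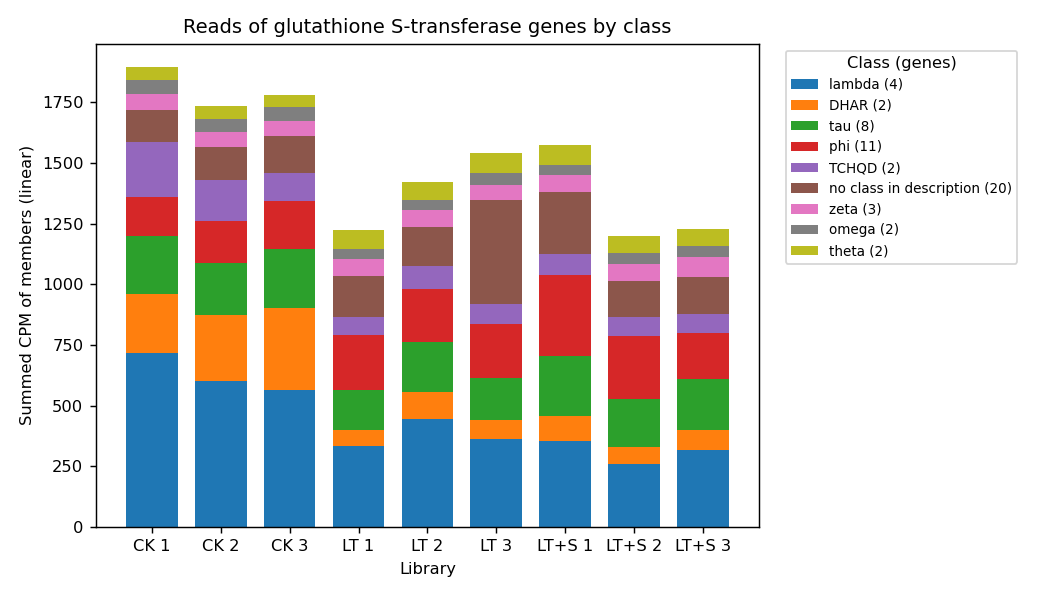
Summed CPM of the 54 glutathione S-transferase genes in each of the 9 libraries, on a linear axis from 0, with the 9 classes stacked and the number of genes of each class in the legend. The CK bars reach 1734 to 1896 CPM and the cold bars 1199 to 1574 CPM, with the lambda and DHAR segments shorter in each cold library and the segment without a class longest in LT 3.

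Counts were tested gene by gene with edgeR's quasi-likelihood test, fitted on the 9 libraries together and adjusted by the Benjamini-Hochberg method over the 19304 genes with enough reads. Of the 54 members 43 were tested. The other 11 were not, 6 of them without a read in any library and 5 with 1 to 43 reads over the 9 libraries, whereas the tested members had at least 69. The 6 without reads were described as L3 (LOC106756910), glutathione S-transferase 3 (LOC106761422), F8 (LOC106763596), F11 (LOC106763798), F13 (LOC106771630) and glutathione S-transferase without a class (LOC106771721).

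In the cold, members changed in both directions. At an adjusted p below 0.05, 13 of the 43 were higher in LT than in CK and 14 were lower. Together these are 62.8% of the tested members, where the same call was made for 46.5% of all genes tested, 22.8% higher and 23.7% lower. In LT+S against CK 14 members were higher and 15 lower, which is 67.4% of the members beside 41.7% of all genes tested, 19.7% higher and 21.9% lower. The median log2 fold change of the members was -0.28 in LT and -0.23 in LT+S, beside 0.01 over all genes in both. Libraries of the groups did not overlap for 27 members in LT, 13 of them higher and 14 lower, and for 34 in LT+S, 15 higher and 19 lower. Over all genes 54.8% did not overlap in LT (27.8% higher and 27.0% lower) and 55.7% in LT+S (28.2% and 27.4%). The study's own rule, a fold over 2 at an unadjusted p below 0.05, was set on DESeq2 results and was applied here throughout to the edgeR fit. By this rule 8 members were higher and 12 lower in LT, beside 11.8% and 13.4% of all genes (25.1% in all). In LT+S 10 were higher and 10 lower, beside 10.8% and 11.6% (22.4% in all). The median size of the change regardless of sign was 1.01 and 0.83 for the members and 0.54 and 0.49 for all genes.

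Set side by side, 13 members were higher than CK in both cold groups, 12 were lower in both, and none was called in opposite directions. Both comparisons use the same CK libraries, and the same joint counts over all genes were not made. The F10 gene LOC106755235 and the U18 gene LOC106776969 were called lower in LT alone. The zeta gene LOC106768138 was called higher in LT+S alone, and LOC106757973 (L3), LOC106764656 (F8) and LOC106775403 (parA) were called lower in LT+S alone. The remaining 12 tested members were called in neither. A call in 1 of the cold groups only is no test of their difference, which is given with the comparison of LT+S with LT.

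**Figure D2:**
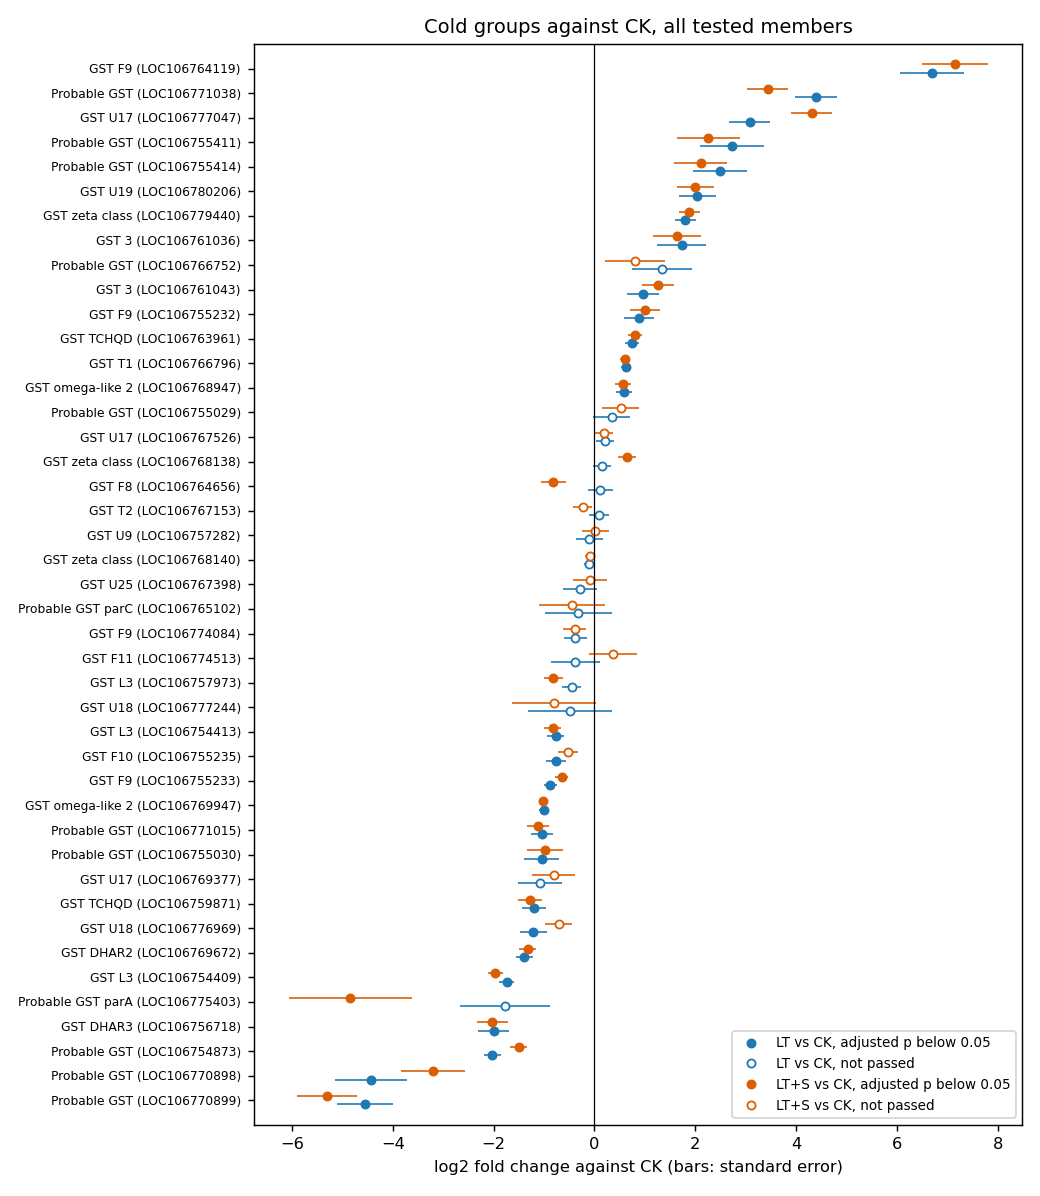
Log2 fold change against CK for the 43 tested members in LT (blue) and LT+S (orange), with bars of 1 standard error from edgeR and filled points for an adjusted p below 0.05. The values run from -4.55 to 6.70 in LT and from -5.31 to 7.15 in LT+S, and both cold groups share the CK libraries.

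In the phi class the gene annotated as F9 on chromosome 6 (LOC106764119, 2380585 to 2381691 on Vradiata_ver6) had the largest change of the family. In Arabidopsis F9 has both conjugating and peroxidase activity. Its level was 1.51, 0.714 and 0.262 CPM in CK 1 to 3, 97.4, 68.4 and 99.1 CPM in LT 1 to 3, and 188, 122.5 and 50.8 CPM in LT+S 1 to 3. The 6 cold libraries all lay far above the 3 CK libraries, and within LT+S the highest library was more than 3 times the lowest. The gene rose by 6.70 ± 0.64 (log2 fold change ± SE; 104-fold; edgeR adjusted p = 1.0e-04) in LT and by 7.15 ± 0.65 (142-fold; adjusted p = 1.1e-04) in LT+S. The CK level rests on 42 reads in all, and without CK 1, the CK library with the most of them, the folds became 176 and 239. F9 made up a mean of 0.0452% of the family's reads in CK, 6.40% in LT and 8.76% in LT+S.

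The other genes annotated as F9 changed less, and in both directions. LOC106755232 had 10.97, 13.9 and 12.6 CPM in CK, 16.3, 20.5 and 32.1 in LT, and 34.5, 22.5 and 18.0 in LT+S. It was higher in LT by 0.88 ± 0.30 (edgeR adjusted p = 0.0366) and in LT+S by 1.0 ± 0.30 (adjusted p = 0.024), without overlap with CK. Each of these calls was lost when any 1 of the CK libraries was left out, with adjusted p of 0.0692 to 0.0938 for LT and of 0.0529 to 0.0673 for LT+S, and also without LT 3 (0.123) or LT+S 2 (0.052) in LT and without LT+S 1 (0.085) in LT+S. LOC106755233 went the other way, with 50.1, 52.6 and 61.7 CPM in CK, 27.2, 34.6 and 27.5 in LT, and 36.3, 33.8 and 34.6 in LT+S. It fell by 0.88 ± 0.13 in LT (adjusted p = 6.8e-04) and by 0.65 ± 0.13 in LT+S (adjusted p = 0.00361). LOC106774084, on chromosome 9, had 64.2, 67.4 and 82.0 CPM in CK and was not called, with log2 fold changes of -0.38 ± 0.23 and -0.39 ± 0.23 (adjusted p = 0.195 in both). Its 3 LT+S libraries were all below CK, and it was called lower in LT+S by edgeR on the 6 libraries compared (adjusted p = 0.046) and without LT 3 (0.0395). The fifth, LOC106779321, had 1 read in each of 2 libraries. The 5 genes together had a mean of 139 CPM in CK, 196 in LT and 234.5 in LT+S (exact permutation p = 0.1 for both cold groups). Without the chromosome 6 gene the sum was lower in the cold, at means of 138.5, 107 and 114 CPM (exact permutation p = 0.1 for both). That gene was left out with its rise known, so this p is no separate test of the other genes.

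The F10 gene LOC106755235 had 26.9, 29.2 and 31.8 CPM in CK, 11.5, 19.4 and 20.5 in LT, and 22.1, 18.7 and 20.1 in LT+S. All cold libraries were below CK, and the log2 fold change was -0.77 ± 0.20 (edgeR adjusted p = 0.0127) in LT and -0.53 ± 0.20 (adjusted p = 0.0619) in LT+S. Before scaling, its counted reads were 1440 over CK, 1204 over LT and 1442 over LT+S. LOC106755235 was called lower in LT+S too by edgeR on the 6 libraries compared (adjusted p = 0.0101), without LT 1 (0.00839) and without LT 3 (0.0487). The F8 gene LOC106764656 is annotated as chloroplastic and lies on chromosome 6 (36669033 to 36670174). F8 of Arabidopsis is a widely used marker of oxidative stress responses. It had 8.83, 8.39 and 7.01 CPM in CK, 11.3, 5.69 and 9.33 in LT, and 3.89, 5.06 and 4.81 in LT+S. LT straddled CK, at 0.12 ± 0.25 (adjusted p = 0.72), and LT+S lay below both, at -0.82 ± 0.25 against CK (adjusted p = 0.0291). That call was lost without CK 1, CK 2 or any 1 of the LT+S libraries, with adjusted p of 0.0557 to 0.0934.

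In the tau class 3 neighbours on chromosome 11, within 39.0 kb, behaved differently. U17 and U18 are known from Arabidopsis, where U17 takes part in light and stress responses. The first neighbour, the U18 gene LOC106776969 (15872147 to 15873241), had 180, 179 and 216.5 CPM in CK, 63.8, 125 and 59.2 in LT, and 124, 101 and 125 in LT+S. It fell by 1.21 ± 0.27 in LT (edgeR adjusted p = 0.00584), and LT+S, also below each CK library, differed from CK by -0.71 ± 0.27 (adjusted p = 0.0585). In LT+S the gene was called when LT 2 (adjusted p = 0.0036) or LT 3 (0.0374) was left out of the joint fit, and by DESeq2 (0.0344). The second, the U18 gene LOC106777244, varied within each group, between 2.49 and 11.2 CPM in CK, between 2.23 and 8.19 in LT, and between 1.05 and 8.68 in LT+S, and the groups overlapped. The third, the U17 gene LOC106777047 (15909922 to 15911131), had 0.813, 0.298 and 0.524 CPM in CK, 3.32, 4.65 and 5.99 in LT, and 13.4, 7.63 and 11.9 in LT+S. Its 3 groups did not overlap, and it rose by 3.08 ± 0.40 in LT (8.44-fold; adjusted p = 3.9e-04) and by 4.31 ± 0.40 in LT+S (19.9-fold; adjusted p = 1.3e-04). How the authors treated reads that match several genes is not given in the sources used here, so reads of similar neighbours may be shared.

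Of the other genes placed in the tau class by their descriptions only U19 was called, and genes whose descriptions name no class were not placed. LOC106780206, whose Arabidopsis namesake is a strongly conjugating enzyme raised by herbicide safeners, had 28.3, 17.1 and 8.77 CPM in CK, 81.0, 59.7 and 83.1 in LT, and 88.5, 72.0 and 56.9 in LT+S. The cold libraries all lay above CK, where CK 1 was the highest and CK 3 the lowest. CK 1 was the highest CK library for 20 of the 43 tested members and CK 3 for 19, so this is not particular to U19. The mesophyll, vascular, and root and nodule marker sums had the reverse order in the 3 CK libraries, and the floral sum had the order of this gene. The part of these markers was not tested. The rise was 2.04 ± 0.37 in LT (edgeR adjusted p = 0.00209) and 2.0 ± 0.37 in LT+S (adjusted p = 0.00274). U9 (LOC106757282), U25 (LOC106767398) and the chromosome 7 pair of U17 genes (LOC106769377 and LOC106767526) were called in neither cold group, with log2 fold changes from -1.08 to 0.21.

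**Figure D3:**
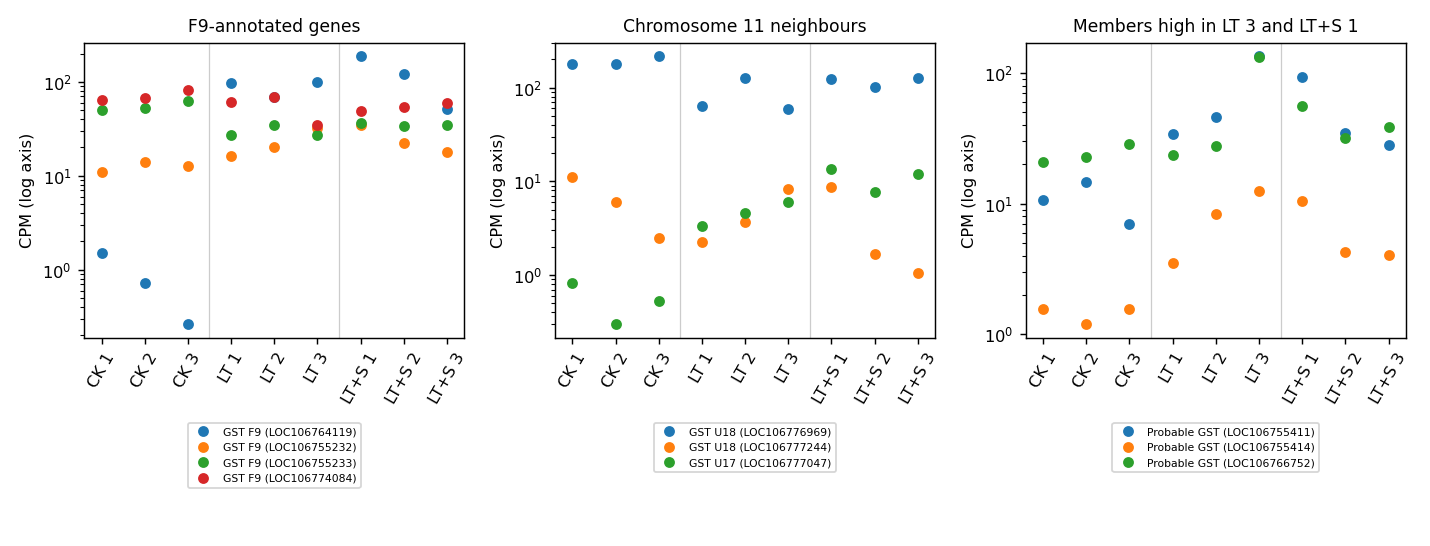
CPM in each library, on log axes, for the 4 F9-annotated genes with more than 2 reads (left), the 3 neighbouring tau genes on chromosome 11 (middle) and 3 genes annotated with the symbol HSP26-A that were chosen after their values were seen (right). F9 on chromosome 6 rises from 0.262 to 1.51 CPM in CK to at least 50.8 CPM in the cold while its namesakes stay between 10.97 and 82.0 CPM, and the HSP26-A genes peak in LT 3.

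The DHAR class fell as a whole. The chloroplastic DHAR3 (LOC106756718, chromosome 3, 9434789 to 9440147) had 156, 174 and 221 CPM in CK, 31.8, 65.2 and 41.2 in LT, and 62.3, 34.1 and 38.7 in LT+S. DHAR2 (LOC106769672, chromosome 8, 44940639 to 44943923) had 89.2, 96.8 and 116 CPM in CK, 33.2, 46.0 and 35.8 in LT, and 41.2, 33.6 and 46.3 in LT+S. For both genes each cold library lay well below each CK library. DHAR3 fell by 2.0 ± 0.31 in LT (edgeR adjusted p = 9.8e-04) and by 2.03 ± 0.31 in LT+S (adjusted p = 0.00112), and DHAR2 by 1.39 ± 0.17 (adjusted p = 3.1e-04) and 1.32 ± 0.17 (adjusted p = 5.3e-04). The mesophyll markers were lower in the same libraries, and their part in this fall was not tested.

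Of the 3 tested lambda genes 2 were called lower in LT and 3 in LT+S. LOC106754409 (L3, unplaced) had 157, 142 and 137 CPM in CK, 38.2, 43.3 and 48.8 in LT, and 44.9, 32.3 and 34.4 in LT+S. It fell by 1.74 ± 0.15 in LT (edgeR adjusted p = 7.3e-05) and by 1.97 ± 0.15 in LT+S (adjusted p = 6.4e-05). LOC106754413 (L3, unplaced), with 111, 105 and 116 CPM in CK, 54.4, 77.6 and 62.4 in LT, and 74.2, 51.4 and 61.1 in LT+S, fell by 0.77 ± 0.17 (adjusted p = 0.00507) and 0.83 ± 0.17 (adjusted p = 0.00414). Neither gene's cold libraries overlapped with CK.

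The third lambda gene, LOC106757973 (L3, chromosome 3, 4448993 to 4451545), took the most reads of the family, a mean of 20.5% of them in CK, 19.6% in LT and 15.8% in LT+S. Its level was 448, 354 and 311 CPM in CK, 241.5, 324 and 251 in LT, and 233, 176 and 220 in LT+S. Before scaling, its counted reads were 18415 over CK, 19020 over LT and 14876 over LT+S. LT overlapped with CK (-0.45 ± 0.19, edgeR adjusted p = 0.0774), a comparison that passed the threshold without CK 3 (0.0462) or without LT 2 (0.0389). LT+S lay below CK and fell by 0.82 ± 0.19 (adjusted p = 0.00756). Its neighbour within 6.67 kb, LOC106756910, had no reads.

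The TCHQD and omega classes each held 1 gene that rose and 1 that fell. TCHQD is named after a bacterial dehalogenase. The TCHQD gene LOC106759871, on chromosome 5, had 220, 161 and 105 CPM in CK, 61.1, 82.4 and 68.1 in LT, and 73.1, 64.6 and 62.4 in LT+S. It fell by 1.20 ± 0.24 (edgeR adjusted p = 0.00372) and 1.28 ± 0.24 (adjusted p = 0.0032) without overlap, although the CK libraries themselves differed by a factor of more than 2. The other TCHQD gene, LOC106763961 on chromosome 6, had 6.62, 7.86 and 8.58 CPM in CK, 13.1, 12.7 and 13.0 in LT, and 14.2, 12.1 and 13.9 in LT+S. It rose by 0.75 ± 0.14 (adjusted p = 0.0022) and 0.80 ± 0.14 (adjusted p = 0.00193).

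The omega-like gene LOC106769947, on chromosome 8, was among the steadiest between pots, with 42.8, 38.1 and 40.2 CPM in CK, 19.8, 19.9 and 20.5 in LT, and 20.4, 20.3 and 19.1 in LT+S. It fell by 1.01 ± 0.09 (edgeR adjusted p = 8.3e-05) in LT and by 1.02 ± 0.09 (adjusted p = 1.1e-04) in LT+S. Its relative LOC106768947, on chromosome 7, rose by 0.58 ± 0.16 (adjusted p = 0.0147) and 0.56 ± 0.16 (adjusted p = 0.0189), from 14.2 to 17.9 CPM in CK to 21.4 to 29.5 CPM in the cold. The second of these calls was lost without CK 1, LT+S 2 or LT+S 3. Omega enzymes of animals act as thiol transferases and dehydroascorbate reductases.

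The theta pair lies within 5.96 kb on chromosome 7. T1 (LOC106766796, 54291880 to 54294892) had 48.1, 45.2 and 41.2 CPM in CK, 70.4, 67.9 and 70.1 in LT, and 75.4, 63.5 and 67.0 in LT+S. It rose by 0.63 ± 0.10 in LT (1.55-fold; edgeR adjusted p = 0.00116) and by 0.61 ± 0.10 in LT+S (1.53-fold; adjusted p = 0.0016). T2 (LOC106767153) stayed between 5.06 and 8.56 CPM in the 9 libraries and was not called (0.09 ± 0.19 and -0.23 ± 0.19, adjusted p = 0.718 and 0.354).

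Of the zeta genes, whose enzyme isomerizes maleylacetoacetate, LOC106779440 (unplaced) rose in both cold groups. It had 1.45, 2.26 and 1.83 CPM in CK, 7.35, 6.19 and 5.75 in LT, and 6.37, 6.53 and 7.49 in LT+S, with log2 fold changes of 1.8 ± 0.21 (edgeR adjusted p = 2.5e-04) and 1.88 ± 0.21 (adjusted p = 2.8e-04). The other zeta genes are neighbours within 10.98 kb on chromosome 7. LOC106768140 stayed at 36.4 to 45.4 CPM throughout (-0.11 ± 0.09 and -0.09 ± 0.09, adjusted p = 0.383 and 0.472). LOC106768138 had 21.5, 16.7 and 13.9 CPM in CK, 20, 18.4 and 19.6 in LT, and 23.3, 25.4 and 33.2 in LT+S. Its LT+S libraries lay above all others, by 0.65 ± 0.18 against CK (adjusted p = 0.0199), a call lost without CK 2 (0.0704), CK 3 (0.0553) or LT+S 3 (0.0761).

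Among the genes with no class in the description, LOC106771038 (probable glutathione S-transferase, chromosome 8, 44665260 to 44666272) had the second largest rise of the family in LT. Its level was 5.81, 2.80 and 2.42 CPM in CK, 69.8, 49.2 and 115 in LT, and 47.8, 34.0 and 38.9 in LT+S. The groups did not overlap, with LT highest and CK lowest, and it rose by 4.40 ± 0.42 in LT (21.1-fold; edgeR adjusted p = 1.0e-04) and by 3.44 ± 0.41 in LT+S (10.9-fold; adjusted p = 3.4e-04).

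Several genes carry the symbol HSP26-A, after a soybean gene that responds to stress and auxin. LOC106755411 had 10.7, 14.5 and 6.94 CPM in CK, 33.8, 45.7 and 134 in LT, and 92.3, 34.4 and 28.1 in LT+S. LOC106755414 had 1.57, 1.19 and 1.57 CPM in CK, 3.53, 8.38 and 12.5 in LT, and 10.4, 4.26 and 4.06 in LT+S. Both were highest in LT 3 within LT and in LT+S 1 within LT+S, and all cold libraries were above CK. LOC106755411 rose by 2.73 ± 0.64 in LT (edgeR adjusted p = 0.00762), or by 1.89 without LT 3. In LT+S it rose by 2.26 ± 0.63 (adjusted p = 0.0189), a call lost without CK 3 (0.0632) and without LT+S 1, where the log2 fold change was 1.54 (adjusted p = 0.0682). LOC106755414 rose by 2.49 ± 0.54 (adjusted p = 0.00508) and 2.11 ± 0.53 (adjusted p = 0.0123), the latter 1.52 without LT+S 1 and lost without CK 2 (0.0512) and under limma-voom (1.95, adjusted p = 0.076). Another gene of this symbol, LOC106766752, had 131.9 CPM in LT 3 beside 23.7 and 27.3 in LT 1 and LT 2, and 20.9 to 28.6 in CK. It was not called in LT (1.34 ± 0.60, adjusted p = 0.0952) and was named after its values were seen. LOC106766752 was called higher in LT by DESeq2 (adjusted p = 0.0393) and by edgeR without LT 1 (0.0362) or LT 2 (0.0452), and in LT+S by edgeR on the 6 libraries compared (0.0276) and without LT 3 (0.017).

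Other genes of this symbol fell. LOC106754873 had 53.2, 62.9 and 83.4 CPM in CK, 17.4, 14.0 and 17.3 in LT, and 23.0, 22.4 and 25.1 in LT+S. The 3 groups did not overlap, and it fell by 2.03 ± 0.17 in LT (edgeR adjusted p = 6.8e-05) and by 1.5 ± 0.17 in LT+S (adjusted p = 2.8e-04). LOC106771015, at 8.64 to 11.7 CPM in CK and 3.87 to 5.72 in the cold, fell by 1.04 ± 0.22 (adjusted p = 0.00433) and 1.12 ± 0.22 (adjusted p = 0.00349). LOC106755030, at 9.10 to 11.8 CPM in CK, 2.28 to 7.29 in LT, and between 5.27 and 5.56 in LT+S, was just past the threshold at -1.05 ± 0.35 (adjusted p = 0.0357) and -0.98 ± 0.35 (adjusted p = 0.049). In LT its call was lost without any 1 of 6 libraries (CK 1, CK 2, LT 1 and each LT+S library), with adjusted p of 0.0518 to 0.091. In LT+S it was lost without any 1 of 7 (the CK libraries, LT 1 and the LT+S libraries), with 0.0616 to 0.12.

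Members of few reads moved as well, and those in this paragraph other than parA were named after their values were seen. The chromosome 8 neighbours LOC106770899 and LOC106770898, within 5.27 kb, had 122 and 112 reads over the CK libraries and 7 reads each over LT. Over LT+S they had 4 and 17 reads. Their CK to LT ratios were 24.9 (95% interval 11.7 to 63.1) and 22.8 (10.7 to 58.1), exact intervals that cover counting error only, and their log2 fold changes in LT were -4.55 ± 0.55 (edgeR adjusted p = 2.9e-04) and -4.43 ± 0.72 (adjusted p = 0.00121). The second of these became -6.34 without LT 3, which held most of its LT reads. In LT+S the log2 fold changes were -5.31 ± 0.60 (adjusted p = 2.8e-04), or -6.51 without LT+S 2, and -3.20 ± 0.64 (adjusted p = 0.00411). The chromosome 5 genes LOC106761036 and LOC106761043 (glutathione S-transferase 3), in a cluster of 4 that spans 50.8 kb, rose by 1.73 ± 0.48 (adjusted p = 0.0161) and 0.97 ± 0.32 (adjusted p = 0.0337) in LT and by 1.64 ± 0.48 (adjusted p = 0.0224) and 1.26 ± 0.32 (adjusted p = 0.0125) in LT+S. The calls of LOC106761036 were lost without CK 2 in LT, and without CK 1, CK 2, LT+S 1 or LT+S 2 in LT+S, and that of LOC106761043 in LT without CK 1, CK 3, LT 3 or LT+S 2.

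The parA gene LOC106775403, named after an auxin-regulated gene of tobacco, had 47 reads over CK, 20 over LT and 2 over LT+S. Its CPM was 0.639, 0.476 and 1.83 in CK, 0.0841, 0.0911 and 0.652 in LT, and 0.0855, 0 and 0 in LT+S. The CK to LT+S ratio was 33.9 with an exact 95% interval of 8.87 to 288 for counting error only, and the edgeR log2 fold change was -4.85 ± 1.22 (adjusted p = 0.0121), or -4.06 without CK 3 and -7.36 without LT+S 1. The LT+S call was not made by edgeR on the 6 libraries compared. LT was not called (-1.78 ± 0.89, adjusted p = 0.131) and was called without LT 3 (0.0239). The parC gene LOC106765102, at 0.377 to 2.03 CPM, was called in neither cold group, nor were the F11 gene LOC106774513, at 0.546 to 2.29 CPM, and LOC106755029 of the symbol HSP26-A, at 2.80 to 7.65 CPM.

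**Figure D4:**
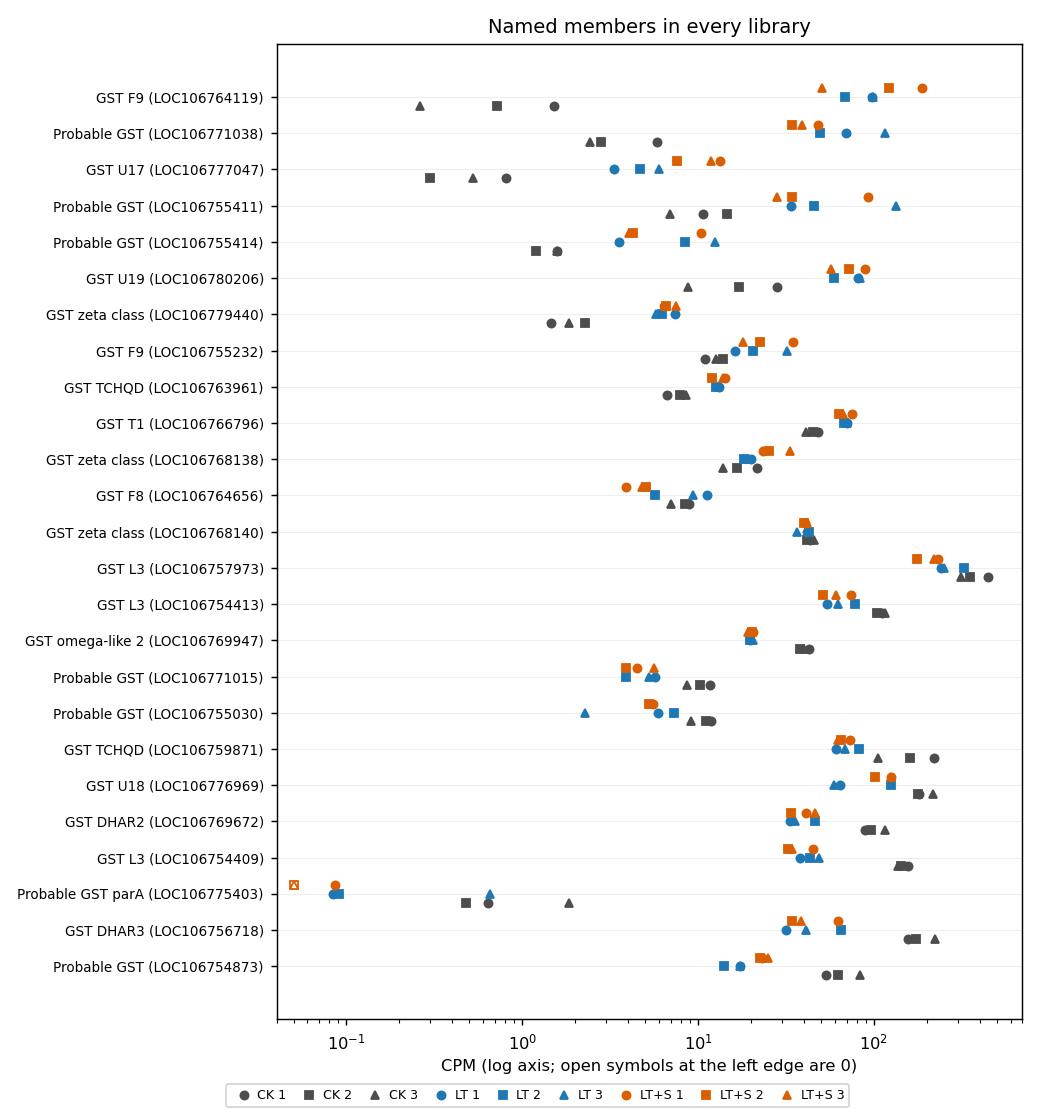
CPM of the 25 members chosen by the naming rule in each library, on a log axis, ordered by their log2 fold change in LT against CK, with group by colour and pot by symbol. Open symbols at the left edge stand for 0. From F9 at the top to LOC106754873 at the bottom, the cold libraries pass from above to below the grey CK libraries, and blue and orange symbols mostly overlap.

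The last comparison, LT+S against LT, asks what uniconazole changed in the cold. No member was called by edgeR in either direction, beside 0.0104% of all genes called higher and 0.00518% lower (0.0155% in all), and the smallest adjusted p of a member was 0.384. At an unadjusted p below 0.05 there were 3 higher and 3 lower members, 14.0% of the 43 beside 7.07% of all genes. DESeq2 called 1 higher and 0 lower, and limma-voom called 0 in each direction. By the study's rule of a fold over 2 at an unadjusted p below 0.05, 1 was higher and 1 lower, beside 1.47% and 0.995% of all genes (2.46% in all). Libraries of the groups did not overlap for 6 members, 3 higher and 3 lower, which is 14.0% beside 14.1% of all genes (7.21% higher and 6.91% lower). The median log2 fold change was -0.01 for the members and for all genes.

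The member nearest to a call was the chromosome 11 U17 gene LOC106777047, whose LT libraries (3.32, 4.65 and 5.99 CPM) all lay below its LT+S libraries (13.4, 7.63 and 11.9 CPM). Its log2 fold change was 1.24 ± 0.33 (edgeR adjusted p = 0.384, DESeq2 adjusted p = 0.0389). LOC106754873 (0.54 ± 0.17, edgeR adjusted p = 0.484) and the zeta gene LOC106768138 (0.50 ± 0.18, adjusted p = 0.595) were also higher in each LT+S library than in each LT library. The F8 gene LOC106764656 (-0.93 ± 0.25, adjusted p = 0.388), LOC106771038 (-0.96 ± 0.35, adjusted p = 0.603) and the L3 gene LOC106757973 (-0.38 ± 0.19, adjusted p = 0.763) were lower in each. F9 on chromosome 6 differed by 0.45 ± 0.45 (adjusted p = 0.897), since LT+S 3 lay below the 3 LT libraries and LT+S 1 and 2 above them. Summed mesophyll markers were 15860 to 18280 CPM in LT+S and 6725 to 15360 in LT, and their part in these differences was not tested.

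Members differed between pots of 1 group. The highest library was more than 2 times the lowest for 12 of the 43 tested members in CK, 13 in LT and 7 in LT+S, and the median ratio of highest to lowest was 1.40, 1.58 and 1.39, beside 1.34, 1.35 and 1.27 over all genes tested. LT 3 was the highest LT library for 20 members, and LT+S 1 the highest LT+S library for 26. The same counts over all genes were not made, so these are not shown to be a trait of the family. LT 3 also had the lowest sum of mesophyll markers of the 9 libraries, 6725 CPM, and its part in these differences was not tested.

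By position, 40 members were placed on chromosomes and 14 were not. Of those placed, 19 lay in 8 clusters in which neighbouring starts were within 100 kb. The U18 and U17 genes of chromosome 11 had log2 fold changes of -1.21, -0.49 and 3.08 in LT, and the theta pair 0.09 and 0.63. Both tested genes of the chromosome 5 cluster were called higher in both cold groups, and both of the chromosome 8 pair were called lower. Of the U17 pair and the zeta pair on chromosome 7 no gene was called in LT.

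Genes that make, recycle and move glutathione were counted from lists matched to the descriptions, with the family left out. Beside the list counts below, 22.8% of all genes tested were called higher and 23.7% lower in LT, and 19.7% and 21.9% in LT+S. The 3 tested genes of glutathione synthesis were called in neither cold group by edgeR or limma-voom. At an unadjusted p below 0.05 there were 0 in LT and 1 in LT+S, and DESeq2 called 0 and 1. Both glutathione reductases, which return oxidized glutathione to its reduced form, changed and in opposite directions. The cytosolic one (LOC106770425) had 152, 142 and 138 CPM in CK, 194, 203 and 233 in LT, and 239, 194 and 200 in LT+S, and rose by 0.54 ± 0.13 (edgeR adjusted p = 0.0072) and 0.55 ± 0.13 (adjusted p = 0.00774). The chloroplastic one (LOC106772498) had 145, 138 and 144 CPM in CK, 89.3, 80.9 and 78.6 in LT, and 77.03, 83.5 and 76.6 in LT+S, and fell by 0.78 ± 0.09 (adjusted p = 2.8e-04) and 0.85 ± 0.09 (adjusted p = 2.6e-04).

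Of 7 tested glutathione peroxidases, which reduce lipid peroxides, 3 were higher and 2 lower in LT and 1 was higher and 1 lower in LT+S. In LT+S DESeq2, limma-voom and an unadjusted p below 0.05 each gave 2 higher and 2 lower, and without CK 2 only 1 was higher in LT. Peroxidase 8 (LOC106776939) rose by 1.82 ± 0.16 (edgeR adjusted p = 7.3e-05) and 1.90 ± 0.16 (adjusted p = 8.6e-05), and the chloroplastic enzyme LOC106765185 fell by 1.54 ± 0.17 (adjusted p = 1.9e-04) and 1.44 ± 0.17 (adjusted p = 3.4e-04). Of 10 tested genes picked for glutathione breakdown by the wording of their descriptions, 2 were higher and 4 lower in both cold groups. That wording also took in 3 tested hydroxyacylglutathione hydrolases, which are counted among the glyoxalases too, and an S-formylglutathione hydrolase, and without these 4 genes 2 were higher and 2 lower of 6. Glutathione hydrolase 3 (LOC106775372) had 11.6, 12.2 and 14.2 CPM in CK, 54.2, 46.0 and 56.6 in LT, and 27.4, 29.0 and 28.9 in LT+S, and these groups did not overlap. It rose by 2.05 ± 0.12 (adjusted p = 2.4e-05) in LT and 1.17 ± 0.12 (adjusted p = 1.8e-04) in LT+S, and LT+S differed from LT by -0.88 ± 0.12 (adjusted p = 0.0691). Gamma-glutamylcyclotransferase 2-2 (LOC106760885) fell by 2.84 ± 0.23 (adjusted p = 6.1e-05) and 3.01 ± 0.24 (adjusted p = 6.5e-05).

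Glyoxalases, which clear methylglyoxal with glutathione, were mostly lower, with 1 higher and 5 lower of 9 in LT and 0 higher and 5 lower in LT+S, where DESeq2, limma-voom and an unadjusted p below 0.05 also gave 0 higher. Glutaredoxins were 2 higher and 7 lower of 22 in LT, and 1 higher and 8 lower in LT+S, so that 40.9% were called in each, beside 46.5% and 41.7% of all genes. Transporters of the ABCC family were 8 higher and 5 lower of 24 in LT, and 7 higher and 5 lower in LT+S, or 54.2% and 50% called. In LT+S 12 were higher by DESeq2 and at an unadjusted p below 0.05 and 10 by limma-voom, 4 were higher without LT+S 2, and 3 were lower without CK 1, CK 2, LT+S 2 or LT+S 3. In LT ABC transporter C family member 3 (LOC106775126) rose by 2.62 ± 0.44 (edgeR adjusted p = 0.00137) from under 0.5 CPM in CK, and member 8 (LOC106773074) fell by 1.73 ± 0.20 (adjusted p = 2.2e-04). The median log2 fold changes in LT were -0.85 for glyoxalases, -0.03 for glutaredoxins and 0.40 for ABCC transporters, beside 0.01 over all genes.

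TGA factors, which bind the as-1 element found in promoters of many plant glutathione S-transferase genes, were 3 higher and 1 lower of 11 in LT and 2 and 2 in LT+S. TGA-2.1 (LOC106780799) rose by 0.64 ± 0.15 (edgeR adjusted p = 0.00681) and 0.63 ± 0.15 (adjusted p = 0.00827), and TGA4 (LOC106775194) fell by 0.57 ± 0.15 (adjusted p = 0.0127) and 0.70 ± 0.15 (adjusted p = 0.00558). Of 8 oxophytodienoate reductases 3 were higher and 4 lower in LT and 2 and 1 in LT+S. Reductase 3 (LOC106769071), an enzyme of jasmonate synthesis, rose by 0.79 ± 0.12 (adjusted p = 9.1e-04) and 0.62 ± 0.12 (adjusted p = 0.00375). Over the glutathione metabolism pathway of the file, without the family, 8 were higher and 20 lower of 47 in LT, and 5 and 16 in LT+S, with medians of -0.33 and -0.18. In all 59.6% of these genes were called in LT and 44.7% in LT+S, beside 46.5% and 41.7% of all genes. Only the family was left out of the pathway list, so genes of the other lists can be counted in it again. In LT+S against LT edgeR called 0 genes of each of these lists in either direction, and limma-voom called 0 as well. DESeq2 called 1 gene of the breakdown list lower, 1 of the pathway list lower, which can be the same gene, and 1 oxophytodienoate reductase higher. An unadjusted p below 0.05 was reached by 1 gene each of those 3 lists, 2 glutaredoxins and 4 ABCC transporters.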

How the data were processed

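Leaf RNA of 3 pots each of CK, LT and LT+S was sequenced. The deposited values are raw counts per gene, made by the authors with Trimmomatic for trimming, hisat2 for alignment to Vradiata_ver6 and htseq-count for counting. Bowtie2 and eXpress are named in their methods too, and CASAVA 1.8 and Cufflinks in the submitters' processing notes. The strand setting and the handling of reads with several matches are not given in the sources used here. Positions come from RefSeq's gene table of Vradiata_ver6, in which 54 of 54 members were found.

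Counts were analysed with edgeR 4.0.16 (R 4.3.3): filterByExpr by group left 19304 genes, libraries were scaled by TMM (factors 0.781 to 1.17), and glmQLFit and glmQLFTest were fitted on the 9 libraries by group, with Benjamini-Hochberg adjustment over all genes tested. CPM uses the TMM library sizes, and a standard error is the log2 fold change divided by the square root of F. No library was a copy of another of its group, and pairs across groups were not compared. The procedure was tested on simulated counts. Sums over the family, its classes and the F9-annotated genes were compared by two-sided exact permutation tests, with no adjustment over the sums. At 19561896 reads or more per library, 1 read is about 0.04 to 0.07 CPM, and the 95% intervals cover counting error only.

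Members named were F9; the 8 largest rises and 8 largest falls against CK in either cold group among called members whose libraries did not overlap with CK and whose higher group averaged 5 CPM or more; the 6 smallest p in LT+S against LT; the 6 most abundant; and the most abundant of each class. In each related list the 2 genes of smallest p per comparison with CK could be named. Members outside this rule are given to complete a class or cluster, chosen after their values were seen. The members and lists were chosen with earlier results of these data known. Alternatives were DESeq2 1.42.0, limma-voom 3.58.1, edgeR on 6 libraries, DESeq2 size factors, no filter, a minimum mean of 1 CPM, a block for the replicate number, the study's rule of a fold over 2 at an unadjusted p below 0.05, each library left out, and other cluster distances. The breakdown list without 5 hydrolases of other function was added after seeing the data. Soybean, metabolites and sequences were not analysed here.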

Additional observations from a re-analysis of the deposited data

How the results depend on the processing

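The study's rule of a fold over 2 at an unadjusted p below 0.05 was applied to the edgeR fit, where the study used DESeq2. Under it 8 members were higher in LT than in CK in place of 13, and in LT+S against LT 1 was higher and 1 lower in place of 0. DESeq2 called 1 member higher in LT+S than in LT, LOC106777047. The other 100 recomputed counts of members were within 1.5 times the reported ones. With each library left out in turn, members higher in LT numbered 11 to 14 and lower 13 to 16, members higher in LT+S 10 to 15 and lower 13 to 18, and 0 were called in LT+S against LT. Of the recomputed values of named members 840 kept their direction and their side of the threshold, 42 lost the call and 8 gained it. Of the recomputed counts of the related gene lists 948 were within 1.5 times the reported ones and 78 were not, most of them counts of a few genes. With single libraries left out, glutathione peroxidases higher in LT numbered 1 to 3, oxophytodienoate reductases lower in LT+S 0 to 3, and ABCC transporters higher in LT+S 4 to 10. The F8 gene LOC106764656, not called in LT, changed sign without LT replicate 1 and ran from -0.10 to 0.35 as single libraries were left out, beside 0.12. The cause of these changes was not tested. The clusters held 19 members at distances of 50, 100 and 200 kb.

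The replicate numbers do not pair the pots: same-numbered libraries had correlations of -0.296 to 0.267 between their deviations from the group means, and a library correlated best with its own number in 5 of 18 checks. With the replicate number as a block, edgeR called 11 members higher and 14 lower in LT, 12 and 13 in LT+S, and 0 and 0 in LT+S against LT. Classes by protein identity and promoter motifs were planned and not run, because no sequences were used here. With 3 pots per group, members of few reads and changes of under 2-fold are the least certain.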
